A study of Arabidopsis thaliana with 6 samples.

Results

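AT1G77750, a nuclear locus of Arabidopsis thaliana whose listed synonym is RPS13, was the 1 gene found when the array's annotation was searched for nuclear genes named RPL or RPS followed by a number. The search took probe sets with 1 listed gene, matched the gene's symbol or a synonym, and kept for each locus the probe set of highest mean, and it found 1 probe set among the 22746 that were not controls. The comparison was of leaf RNA from 3 arrays of wild type Col-0 and 3 arrays of pam48, a mutant in the Col-0 ecotype that the labels also call mterf6-1. Per the labels, both genotypes grew on soil in a greenhouse, and leaves of the same age were frozen when rosettes had 8 leaves. The labels give no agent or further allele, and they do not say how many plants went into a sample or whether the mutant was tested in more than 1 line. They call the replicates biological, and nothing further says that they came from separate cultivations.

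The search was meant for cytosolic ribosomal proteins, and the annotation does not place AT1G77750 among them. Its name entries give RPS13 and clone names and no compartment. The gene table holds 57 nuclear loci whose names match the search, and for 56 of them the annotation lists no probe set, so they were not analysed here. By the words of their names 7 of the 57 are cytosolic, 7 plastid and 1 mitochondrial, 36 carry no compartment, and 6 are disease resistance genes, whose RPS names stand for resistance to Pseudomonas syringae and not for a ribosomal protein. Without the resistance genes, 30 loci belong by symbol to the large subunit and 21 to the small one. AT1G77750 was thus the sole locus that the search gave. Neither the large against the small subunit nor paralogs of 1 protein could be compared. The search read names alone, so a ribosomal protein gene without such a symbol or synonym would be missed. The array's annotation names 11933 of 13513 probe sets with 1 listed gene by locus only, so other ribosomal protein genes may be among them. The gene found is called AT1G77750 below, with no compartment assigned.

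Ribosomes make all proteins of the cell from messenger RNA, and each consists of a small subunit, which reads the message, and a large subunit, which joins the amino acids. Plant cells hold them in the cytosol, in plastids and in mitochondria. Each kind has its own set of ribosomal proteins, and many proteins of organelle ribosomes are encoded in the nucleus and imported. Proteins of the S series, to which RPS13 belongs by its name, sit in the small subunit. The number alone does not settle the compartment, because the bacterial-type ribosomes of organelles and the cytosolic ribosomes were numbered separately, so that an S13 of one need not be the counterpart of an S13 of the other. A second locus of the gene table, RPS13A (AT4G00100), carries the synonym RPS13 too and had no listed probe set.

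AT1G77750 was slightly higher on average in pam48, by less than the spread between arrays could separate. Levels are the authors' log2 values, 1 per probe set and array, so a difference of 1 is a doubling. Its level was 7.83, 8.02 and 7.76 on wild type replicates 1, 2 and 3, and 8.09, 7.98 and 8.18 on pam48 replicates 1, 2 and 3. The genotypes overlapped, since wild type replicate 2 lay above pam48 replicate 2. The mean was 7.87 ± 0.14 (SD, n = 3) in wild type and 8.08 ± 0.10 (SD, n = 3) in pam48. On each of the 6 arrays the probe set lay above the median of all probe sets, so it was not among the dim ones.

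**Figure D1:**
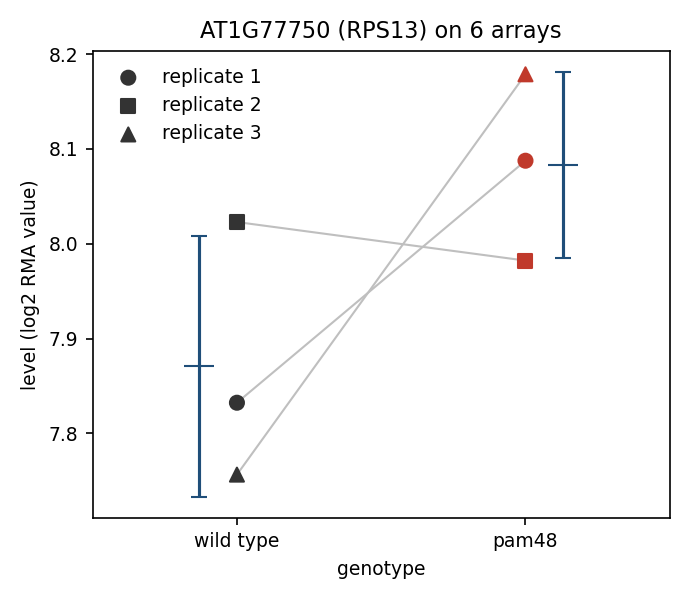
Level of AT1G77750 on each of the 6 arrays (vertical axis, log2 RMA value) by genotype, with grey lines joining arrays of the same replicate number and blue bars giving the mean ± SD of 3 arrays. The wild-type arrays sit between 7.76 and 8.02 and the pam48 arrays between 7.98 and 8.18, and the line of replicate 2 runs downward while those of replicates 1 and 3 run upward.

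The difference, pam48 minus wild type, was 0.21 ± 0.12 (SE) on the log2 scale, which is 1.16-fold. AT1G77750 was not called by limma (unadjusted p = 0.116, adjusted p = 0.494 over 22746 probe sets). So 0 of 1 gene was called, where 0.778% of all probe sets were, and 13.5% of all had an unadjusted p under 0.05. The 95% confidence interval of the difference ran from −0.07 to 0.49, or from 0.954-fold to 1.41-fold. No change, small rises and slight falls lie inside that interval. The exact permutation test over the arrays, two-sided, gave p = 0.2, and 3 against 3 arrays cannot give less than 0.1.

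The size of the difference was ordinary for this table. Of all probe sets 38.0% differed by at least as much in either direction, and the median absolute difference was 0.15. AT1G77750 was measured slightly more tightly than most, as its standard error of 0.12 compares with a median of 0.15 over all probe sets. Non-overlapping genotypes were seen in 20.5% of all probe sets, and AT1G77750 was not one of them.

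Taken by replicate number, AT1G77750 was 0.26 higher in pam48 for number 1, 0.42 higher for number 3 and −0.04 apart for number 2. Across the whole table, the deviations of same-numbered arrays correlated positively, most weakly for number 2. With the replicate number as a block the difference stayed 0.21 ± 0.14 (SE), with an unadjusted p of 0.177 and a limma adjusted p of 0.500, where 1.81% of all probe sets were called. The block therefore gave AT1G77750 no call either.

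No single array made or hid a call of AT1G77750. When 1 array was left out, its difference ranged from 0.16 without wild type replicate 3 to 0.29 without wild type replicate 2. It was 0.16 with each array centred on its median and 0.18 after quantile normalization. In these 8 fits and the other 4 that were run, the difference was positive 12 times and had an unadjusted p under 0.05 in 0. The adjusted p lay between 0.482 and 0.765.

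**Figure D2:**
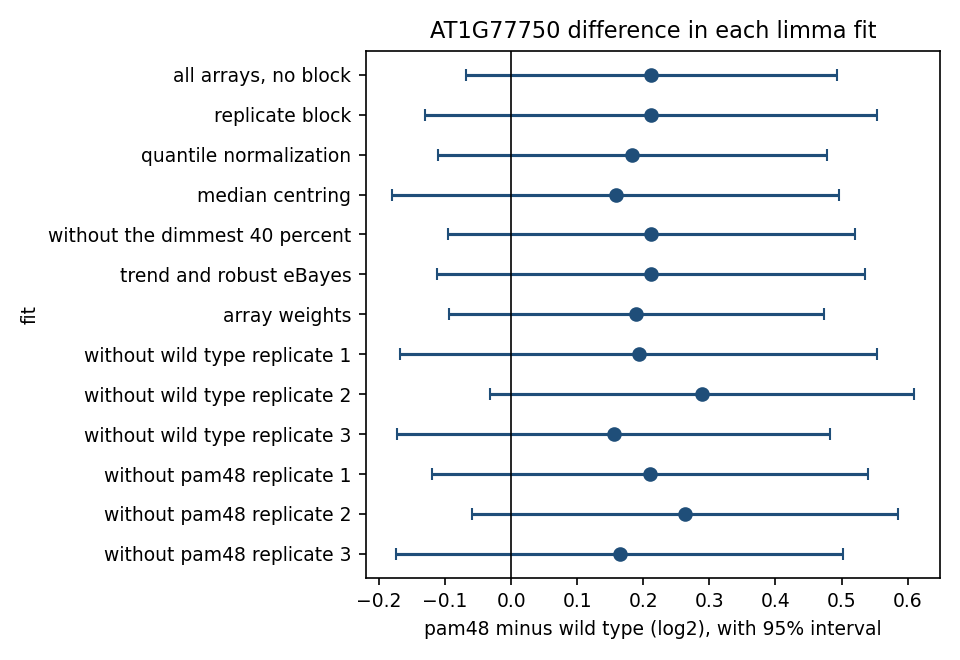
Difference of AT1G77750 between pam48 and wild type (horizontal axis, log2) in each limma fit, one fit per line, with bars for the 95% confidence interval. Every interval in the 13 fits crosses 0, and the points lie between 0.16 and 0.29.

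Some facts of the arrays stand beside these values. Correlations between arrays lay between 0.952 and 0.992. The 3′ over 5′ difference of the actin controls, a sign of RNA integrity, was 3.21 on pam48 replicate 2 and between 2.03 and 2.62 on the others, on the log2 scale, and without that array the difference of AT1G77750 was 0.26. Of 12 leaf markers 7 were measured, with a mean level between 12.72 and 12.87 on the wild-type arrays and between 12.25 and 12.56 on the pam48 arrays, and 0 of the 7 were called. All 7 had negative differences, with a median of −0.45, and an unadjusted p under 0.05 was found for 5, against 13.5% of all probe sets. The genotypes lay apart in 5 of the 7, against 20.5% of all. Of 9 markers of dividing cells 2 were measured, at mean levels of 5.38 to 5.88 in wild type and 5.31 to 6.10 in pam48, and 0 were called. They went opposite ways, AUR1 at −0.29 ± 0.26 (SE) and AUR2 at 0.36 ± 0.29 (SE). AUR2 was at 6.05 on pam48 replicate 2 and between 4.88 and 5.08 on the other arrays. Of 4 shoot apex markers CLV3 was measured, at 3.45 to 3.70 in wild type and 3.20 to 3.34 in pam48, and of 3 guard cell markers FMA, at 5.70 to 6.08 and 5.47 to 5.55. Both lay apart between the genotypes, as 20.5% of all probe sets did, and neither was called. Every level of CLV3 and FMA lay below the lowest array median, 6.38, and the signal of both over background is unknown. Of 3 root markers PYK10 was measured, at 5.19 to 8.51 in wild type and 5.56 to 9.74 in pam48, and it was not called. None of the 3 flower markers had a listed probe set. The part of tissue makeup or RNA integrity in the values of AT1G77750 was not tested, and fewer cells of a type and less RNA per cell cannot be told apart here. MTERF6, the mutated gene by the mutant's other name, had no listed probe set, so its level could not check the labels.

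Other genes of ribosome formation and use were read beside AT1G77750, from lists of loci written for this comparison. Of 30 loci listed as ribosome assembly factors 8 were measured, and 1 of them rose and 0 were called lower, where 0.598% of all probe sets were called higher and 0.18% lower. The riser, AT4G26600, had levels of 4.79, 5.20 and 5.03 in wild type and 5.98, 6.48 and 6.56 in pam48. These groups lay apart, and the difference was 1.33 ± 0.19 (SE, limma adjusted p = 0.0448), or 2.52-fold. Its wild-type levels all lay below the lowest array median, 6.38, and its signal over background is unknown. With 1 array left out the call of AT4G26600 was lost in 5 of 6 cases (limma adjusted p from 0.0868 to 0.203), the exception being pam48 replicate 1. The median difference of the 8 was 0.69 against −0.03 over all probe sets. An unadjusted limma p under 0.05 was found for 5, each with a positive difference, against 13.5% of all probe sets. By their own values the genotypes lay apart in 5 of the 8, against 20.5% of all. PES (AT5G14520), a name taken from the written list, encodes the nucleolar assembly factor pescadillo. It was named outside the rule given below, and was at 0.70 ± 0.17 (limma adjusted p = 0.154). AT2G40360, named after its values were seen, was at 0.99 ± 0.16 (limma adjusted p = 0.0616), and it was called with the replicate block (limma adjusted p = 0.0417).

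AT1G77750 was set against these loci within each array. The level of AT4G26600 minus that of AT1G77750 was −3.04, −2.82 and −2.72 in wild type and −2.11, −1.50 and −1.62 in pam48. The genotypes did not overlap, and the locus moved up by 1.12 relative to AT1G77750, or by 0.93, 1.32 and 1.10 for replicate numbers 1, 2 and 3. For 6 of the 8 assembly loci this within-array difference did not overlap between the genotypes, 5 of them moving up relative to AT1G77750, where the same held for 31.6% of all other probe sets. The remaining one, AT3G15460, was −0.24 relative to AT1G77750. Its own difference was −0.03 ± 0.15 (SE), and by its own values the genotypes overlapped. A within-array difference does not show which of the compared genes changed. Levels of 2 probe sets are not comparable as RNA amounts, so only the change of their difference between genotypes is read. Each exact permutation p, two-sided, lay between 0.1, the smallest possible, and 0.6. After Benjamini-Hochberg adjustment over the 16 comparisons made here and with the plastid genes below, the lowest value was 0.178. With 3 against 3 arrays none could pass 0.05, so the test, which did not use the replicate numbers, cannot decide whether AT1G77750 changed unequally to any of them.

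Plastid-encoded genes of the small subunit, which make those small-subunit proteins that the plastid itself supplies, were compared in the same way. Of 8 measured, all had positive differences of their own, with a median of 0.71 against −0.03 over all probe sets. Limma called 2 higher, where 0.598% of all probe sets were called higher. These were rps16, at 1.33 ± 0.18 (limma adjusted p = 0.0410), and rps4, at 1.18 ± 0.13 (limma adjusted p = 0.0252). Both calls held without pam48 replicate 1 and were lost without each of the other 5 arrays (limma adjusted p from 0.0647 to 0.198). By their own values, 7 of the 8 lay apart between the genotypes, against 20.5% of all probe sets. An unadjusted limma p under 0.05 was found for 6, each higher in pam48, against 13.5% of all. Relative to AT1G77750, 3 of the 8 did not overlap between the genotypes, namely rps16, rps4 and rps2, each moving up. That share was near the 31.6% of all other probe sets. The level of rps4 minus that of AT1G77750 was 4.62, 4.57 and 4.66 in wild type and 5.41, 5.87 and 5.47 in pam48. These values do not compare the RNA amounts of the genes. The other 5 overlapped. For these 8 the exact permutation p, two-sided, ran from 0.1 to 0.7. Positive differences were not particular to the small subunit. Of 7 measured plastid-encoded genes of the large subunit, all were positive, with a median of 0.59. Limma called 2 of them higher, rpl14 and rpl16, against 0.598% of all probe sets, and neither without wild type replicate 1. The genotypes lay apart in 6 of the 7, against 20.5% of all. These genes were not set against AT1G77750.

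Genes of translation and its control gave few values. Of 31 listed translation factors 2 were measured and 0 called, with AT4G20980 at 0.16 ± 0.13 (limma adjusted p = 0.645) and EIF4A-2, a helicase of translation initiation, at −0.15 ± 0.15 (limma adjusted p = 0.718). Of 12 listed genes of the TOR kinase pathway, which adjusts ribosome production to nutrients, and of regulators of ribosomal protein genes, 2 were measured and 0 called. RAPTOR2, a partner protein of the TOR kinase, was at −0.18 ± 0.17 (limma adjusted p = 0.679).

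**Figure D3:**
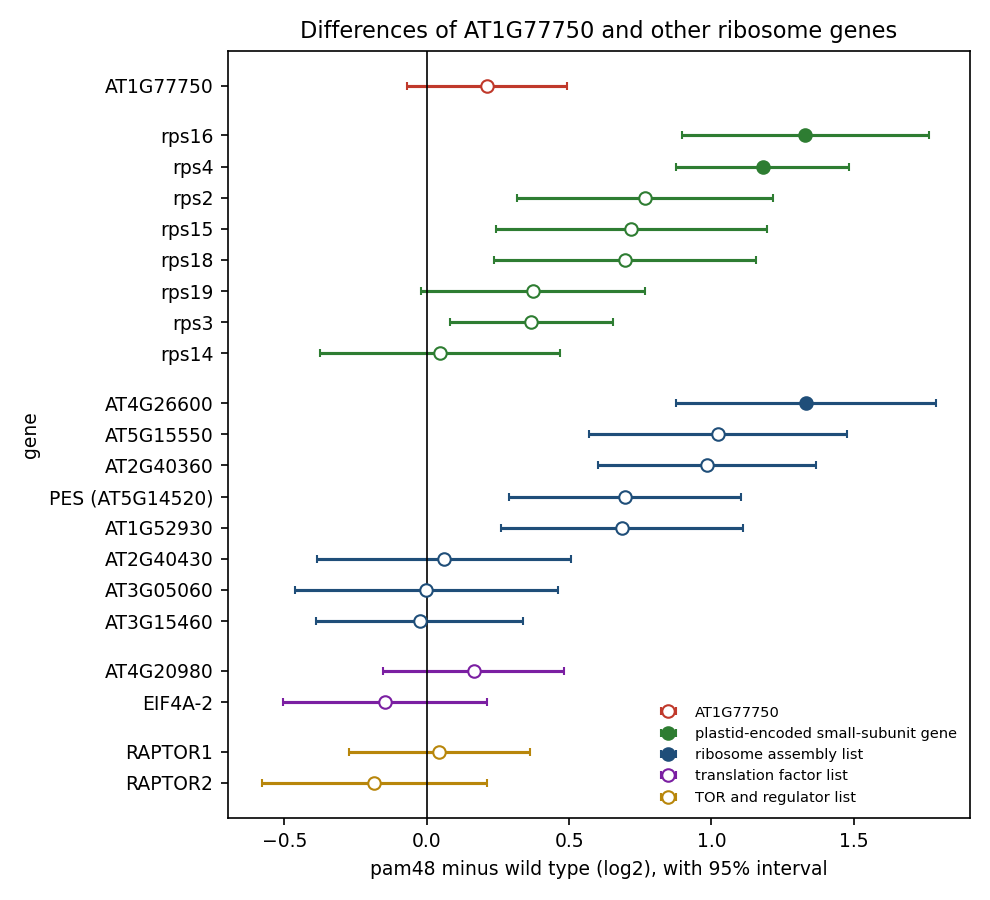
Difference between pam48 and wild type (horizontal axis, log2, bars for the 95% confidence interval) for AT1G77750, 8 plastid-encoded small-subunit genes, 8 ribosome assembly loci, 2 translation factors and 2 genes of the TOR list. Filled points had a limma adjusted p under 0.05, and AT1G77750 is open, with an interval from −0.07 to 0.49.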

How the data were processed

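Leaf RNA was measured on 6 Affymetrix arrays. The deposited values are on a log2 scale, as their range shows, and the submitters' processing notes name RMA as the tool the authors used. Its version, the probe set definition and the build are not stated in those notes or the labels. Of 22810 rows 64 were control probe sets, and 22746 were tested. GEO's platform annotation gave 1 gene for 13513 of these, several for 503 and none for 8730. The TAIR10.1 gene table held 13436 of the former and served for names alone. Scanner intensities were not used, so signal over background is unknown, and the number of arrays limits the precision.

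The genotypes were compared by limma 3.58.1 in R 4.3.3 (lmFit, eBayes, two-sided, Benjamini-Hochberg over all tested probe sets, called at an adjusted p under 0.05), which was tested on simulated data. Where a locus had several probe sets, the one with the highest mean was taken. The gene matching the search was named, and in the assembly, translation and TOR lists the called ones or else the one of largest difference. Further genes are named outside this rule, EIF4A-2 and the called plastid genes among them, with their values known. The member and the lists were chosen with earlier results of these data known. The within-array comparisons were added, and the genes named in them picked, after the values were seen.

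After the genotype means were taken off, the correlation of same-numbered arrays was 0.53, 0.20 and 0.54 for numbers 1, 2 and 3. Each was positive, but arrays of different numbers were not compared in this way. The check therefore cannot settle whether the numbers pair the arrays, and the labels do not say it.

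The alternatives were the replicate block, quantile normalization, median centring, leaving out the 40% dimmest probe sets, trend and robust eBayes, array weights, leaving out each array, and a threshold of 0.01.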

Additional observations from a re-analysis of the deposited data

How the results depend on the processing

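AT1G77750 kept a positive difference and no call in all 12 alternative fits, and its locus had 1 probe set, so averaging probe sets changed nothing. The count of 177 called probe sets over the whole table became 412 with the replicate block, 351 with array weights and 8 at a threshold of 0.01, and it ranged from 1 to 291 when 1 array was left out. The cause was not tested. The replicate block changed no call other than that of AT2G40360 among the nuclear genes named with values. No value could be given for the large against the small subunit, for paralogs, or for genes named as cytosolic, since the search found 1 gene, of no named compartment. Of the nuclear genes given with a limma adjusted p, none changed sign in the fits run. AT3G15460, given without one, went from −0.03 to 0.05 with array weights. With 3 arrays a genotype, changes of AT1G77750 inside its interval cannot be told from none, and signal over background was not examined.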
